A study of Mus musculus with 2 samples.

Results

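Accessible chromatin at 42 genes of motile cilia was examined in DNase-seq of mouse ovary. The genes were taken by symbol from a list of 9 regulators and 33 genes of the axoneme or of its assembly, and all 42 were found among the 21938 protein-coding genes of GENCODE on the chromosomes. The samples were ovaries of B6CASTF1/J females at 36 days of age, an F1 cross of the strains C57BL/6J and CAST. There was 1 group with biological replicates 1 and 2, and no allele, treatment or control group. The labels give the females different numbers and a biosample entry each, under a single donor entry, so each library was taken as 1 animal. DNase I cuts DNA that is not covered by nucleosomes, so a peak of cuts marks open chromatin, and a footprint is a short stretch where cutting is reduced, which the deposited lists place inside or outside the called peaks.

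Motile cilia beat because dynein motors, the outer and inner arms, slide the microtubule doublets of the axoneme against each other, while radial spokes and the central pair govern the beat. In the female tract such cilia line the oviduct, and ciliated cells also occur in the rete ovarii beside the ovary. Geminin-family proteins start the multiciliated programme, FOXJ1 and the RFX factors switch on its structural genes, and RFX proteins recognise a near-palindromic element called the X-box.

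The sequences in which this element lay under a listed footprint in both libraries are given first, because they show the form in which it occurs at these genes. Each comes from the C57BL/6J reference genome of RefSeq (GRCm38.p6, the build called mm10), is written 5′ to 3′ on the strand of its gene, and carries the matched X-box in capitals. The CAST allele of the animals was not analysed here. Each run grew outward from the X-box and was kept to 30 annotated exonic bases, which makes some of them short. The promoter sites of 8 members were Dnaaf1 (chr8:119575268-119575297, plus strand), Ccno (chr13:112987510-112987669, plus), Ccdc103 (chr11:102881212-102881241, plus), Dynlrb2 (chr8:116504844-116505003, plus), Hydin (chr8:110266948-110266977, plus), Spef2 (chr15:9748838-9748867, minus), Dnaic2 (chr11:114727377-114727406, plus) and Spag16 (chr1:69826742-69826901, plus). The distal sites were a pair in Rfx2 (chr17:56810399-56810558 and chr17:56814430-56814589, minus) and 1 in Dnah2 (chr11:69546542-69546571, minus).
Dnaaf1 promoter: gcgcactgGTTGCCGCGGCGACcgggaaag
Ccno promoter: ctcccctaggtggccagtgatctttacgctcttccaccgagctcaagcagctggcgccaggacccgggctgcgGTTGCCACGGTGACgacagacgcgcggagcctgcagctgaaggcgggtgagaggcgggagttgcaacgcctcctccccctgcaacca
Ccdc103 promoter: ggtggcgccGTTGCTAGGCAACaatctctg
Dynlrb2 promoter: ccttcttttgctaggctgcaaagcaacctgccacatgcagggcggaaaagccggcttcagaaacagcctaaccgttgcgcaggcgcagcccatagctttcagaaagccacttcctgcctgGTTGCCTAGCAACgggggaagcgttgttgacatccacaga
Hydin promoter: actctgcgGTTGCTGTGGCAACagatggta
Spef2 promoter: gcaactgGTTGCCCTGGGCGACgggaagac
Dnaic2 promoter: ccggccaggGTTGCTAGGCAACtggtaaac
Spag16 promoter: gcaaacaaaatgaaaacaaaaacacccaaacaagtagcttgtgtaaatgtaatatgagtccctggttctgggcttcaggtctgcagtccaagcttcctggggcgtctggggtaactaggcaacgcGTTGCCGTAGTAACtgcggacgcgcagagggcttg
Rfx2 intronic site, stronger: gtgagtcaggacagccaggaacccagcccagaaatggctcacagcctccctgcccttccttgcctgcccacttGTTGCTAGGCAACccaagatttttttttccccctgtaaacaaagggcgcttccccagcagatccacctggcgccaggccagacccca
Rfx2 intronic site, weaker: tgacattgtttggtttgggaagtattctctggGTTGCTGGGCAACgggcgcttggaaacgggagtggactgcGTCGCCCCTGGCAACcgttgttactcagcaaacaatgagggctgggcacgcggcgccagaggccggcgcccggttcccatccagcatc
Dnah2 distal site: ggccccgaGTTGCCATGGCGACgcgtgcat

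An identical 13-base X-box, GTTGCCTAGCAAC read on one strand or the other, occurred 4 times among these sites: in the promoters of Ccdc103, Dynlrb2 and Dnaic2, and in the stronger of the intronic Rfx2 sites. The weaker Rfx2 site held 2 X-boxes.

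Replicate 1 had 109169 peaks over 22.13 Mb and replicate 2 had 114462 over 25.42 Mb, each list called from 1 library alone. The median peak value was 0.808 in replicate 1 and 0.648 in replicate 2. The labels and files used here state no read depth. No counting interval can therefore be set on a value, and all spreads are those between these 2 libraries.

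Most members had an open promoter. Openness here means that both libraries had a peak within 500 bp of any annotated start. By this measure 37 of the 42 members (88.1%) were open, against 66.7% of all protein-coding genes. The other 5 were Dnah2, Dnah3, Dnah5, Dnah12 and Sntn, which had no promoter peak in either library, and no member had one in a single library. By role, promoters were open at 9 of 9 regulators, 4 of 5 outer arm genes, 4 of 7 inner arm genes, 4 of 4 assembly and docking genes, 9 of 9 genes of the ruler, spokes and central pair, and 7 of 8 other ciliary genes.

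CpG content goes with an open promoter in all genes, so the members were also read within classes of it. The measure was the ratio of observed to expected CpG within 250 bp to either side of a start, taking the start of the gene with the highest ratio. In the high class (ratio of at least 0.6), 23 of 23 members were open, against 95.8% of all genes of that class. In the middle class 12 of 14 members were open, against 64.6%. In the low class (ratio under 0.4) 2 of 5 were open, Tekt4 and Spef2, against 14.4%. In the high class nearly all genes were open, which leaves little room for a difference, and the low class holds few members.

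The open promoters of the members were mostly weaker than the median of all open promoters. Values are the signal that the authors deposited for each peak, and a gene's value in a library is that of its highest promoter peak there. At Ccdc40 this was a different peak in each library. The median over the open members was 2.81 as a mean of the libraries (3.17 in replicate 1 and 2.28 in replicate 2), against 5.15 over all open promoters (6.68 and 3.60). Only 10 of the 37 exceeded that median of all. The members' median rank was at the 29.7th percentile of the 14631 open promoters, and the values ran from 0.653 at Spag17 to 18.6 at Rsph1. Value also went with CpG class, with medians over all open promoters of 6.07 in the high, 1.93 in the middle and 1.05 in the low class. Open members numbered 23, 12 and 2 in these classes, against 12099, 1533 and 999 of all. Their values were not compared within classes. In whole tissue, fewer cells with an open site and a less open site in each cell cannot be told apart.

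**Figure D1:**
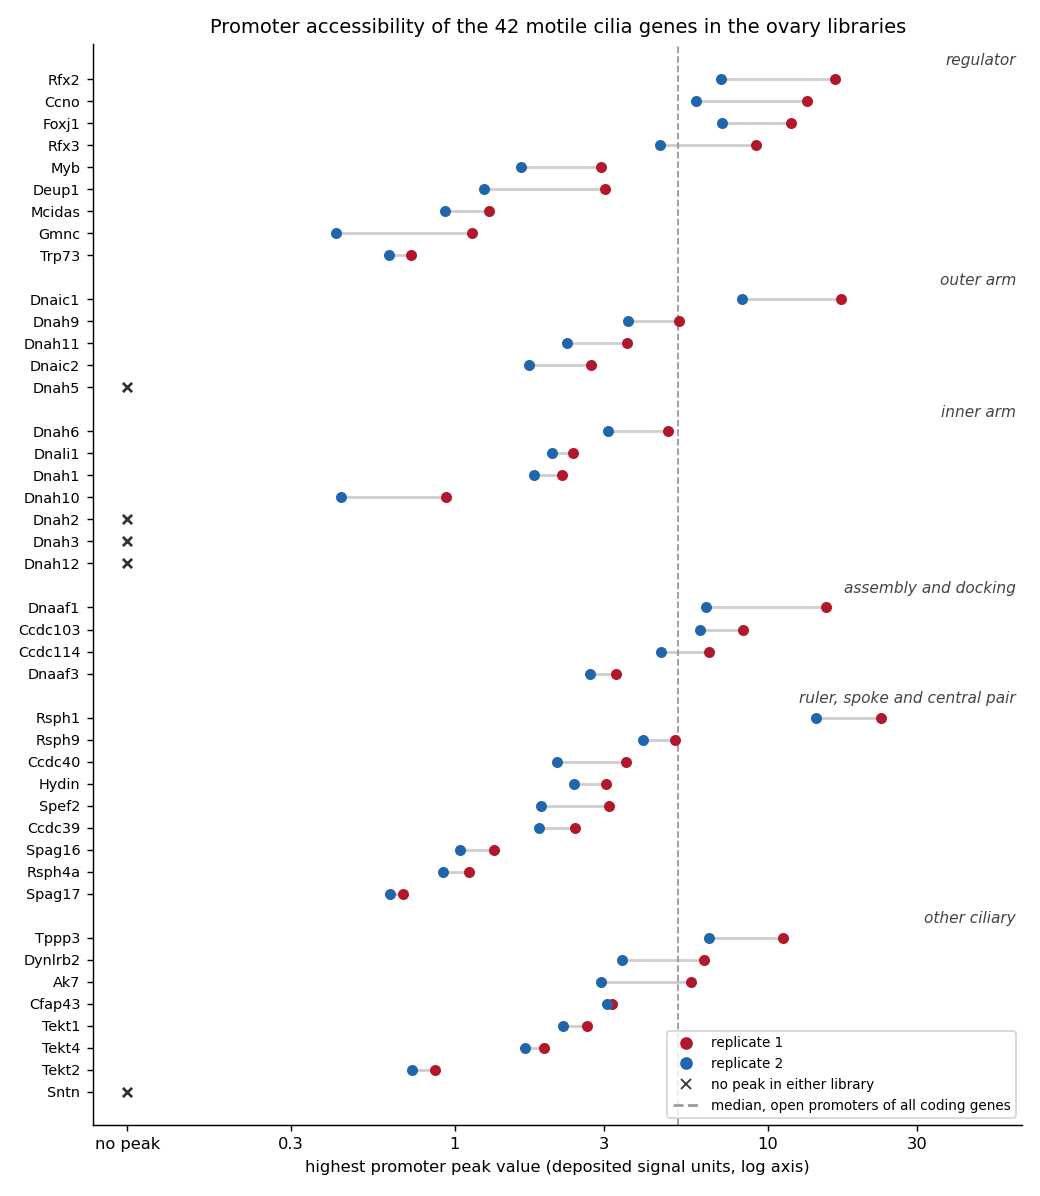
Highest promoter peak value of each of the 42 members (rows, grouped by role and ordered by mean) in replicate 1 and replicate 2, in deposited signal units on a log axis. Points joined by a line are the libraries, crosses are the 5 members with no promoter peak, and the dashed line is the median of all open promoters, 5.15. At Ccdc40 the joined points are different peaks. Rsph1, Dnaic1, Rfx2, Dnaaf1, Ccno, Foxj1, Tppp3 and Ccdc103 stand to the right of the dashed line in both libraries. That line is a median of means of the libraries.

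The regulators are given in order of mean value, those above the median of all open promoters first. Rfx2, an RFX factor, had 16.4 in replicate 1 and 7.08 in replicate 2 (11.7 ± 6.59, SD, n = 2). Ccno, a cyclin needed for centriole amplification, had 13.3 and 5.90 (9.62 ± 5.25). Foxj1, the forkhead factor of motile ciliogenesis, had 11.8 and 7.13 (9.49 ± 3.34), at chr11:116335361-116335540, centred at -51 bp from its single annotated start. Rfx3, the other RFX factor of the list, had 9.16 and 4.53 (6.85 ± 3.27). These 4 were above the median of all open promoters in the mean of the libraries.

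The remaining regulators were far lower. Myb, which promotes entry into the multiciliated fate, had 2.94 in replicate 1 and 1.63 in replicate 2. Deup1, the scaffold of the deuterosome on which extra centrioles form, had 3.03 and 1.24. Mcidas (multicilin), a geminin-family activator of the programme, had 1.28 and 0.929, in a peak 565 bp downstream of its only annotated start in replicate 1 and 575 bp downstream in replicate 2. Around that start the peaks were weaker, 0.697 in replicate 1 and 0.465 in replicate 2. Gmnc, which acts before Mcidas, had 1.13 and 0.419, and Trp73 (p73) had 0.723 and 0.615.

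At Gmnc, Trp73 and Tekt4 no peak shared by the libraries lay at the most upstream annotated start. Gmnc has 4 annotated starts on chromosome 16, and the one with peaks in both libraries was an internal start at position 26968245. None lay within 500 bp of the upstream start at 26991652. Trp73 has 5 starts on chromosome 4, of which only the internal start at 154116605 had a peak in both libraries. Its most upstream start, at 154140208, had a peak of 38 bp and value 0.606 in replicate 1 and none in replicate 2. Tekt4, on chromosome 17, had no peak at its start at 25454615 and peaks in both libraries at its starts from 25471590 to 25474304. With only the most upstream start of each gene in use, 34 members were open, against 61.2% of all genes.

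Outer arm genes ranged widely. Dnaic1, an intermediate chain, had 17.2 in replicate 1 and 8.25 in replicate 2 (12.7 ± 6.31, rank 894 of 14631). Its promoter is shared with Fam219a, whose nearest start lies 237 bp away, so the peak cannot be assigned to either gene alone. The heavy chain genes Dnah9 and Dnah11 had 5.22 and 3.57, and 3.54 and 2.28, in replicates 1 and 2. Dnaic2, the other intermediate chain, had 2.72 and 1.73.

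Inner arm genes were the role with the lowest share of open promoters, 57.1% (4 of 7), against 66.7% of all protein-coding genes. By CpG class the 7 were 2 high, 3 middle and 2 low, with 2, 2 and 0 open. The roles were not compared within classes. Dnah6 had 4.78 in replicate 1 and 3.09 in replicate 2, Dnah1 had 2.20 and 1.79, and Dnah10 had 0.938 and 0.432; all 3 encode heavy chains. Dnali1, a light intermediate chain, had 2.39 and 2.05. The heavy chain genes Dnah2, Dnah3 and Dnah12 had no promoter peak. Among the 9 heavy chain genes of both arms, 5 were open, and Dnah9 at 4.39 ± 1.17 had the highest mean (SD, n = 2).

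Genes for assembly and docking were the role with the highest median, 6.35. Dnaaf1, a factor that assembles dynein arms in the cytoplasm, had 15.3 in replicate 1 and 6.37 in replicate 2 (10.8 ± 6.32), and Dnaaf3, which acts in the same process, had 3.28 and 2.71. Ccdc103, which helps to attach the arms, had 8.31 and 6.05, and Ccdc114, of the outer arm docking complex, had 6.48 and 4.54. A start of Hsdl1 lies 52 bp from that of Dnaaf1, and one of Eftud2 lies 219 bp from that of Ccdc103, so those promoters are shared too. The highest Ccdc114 peak was centred at -612 bp from the nearest start in replicate 1 and at -672 bp in replicate 2, where negative is upstream.

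The strongest member was a radial spoke gene. Rsph1, of the spoke head, had 22.9 in replicate 1 and 14.2 in replicate 2 (18.6 ± 6.14), at chr17:31277261-31277460, and ranked 59 of 14631 open promoters. Rsph9, of the same structure, had 5.03 and 3.99, and Rsph4a had 1.11 and 0.916. The spoke head genes thus spanned most of the range of the members. No other gene's start lay within 1 kb of any of the 3.

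Ruler and central pair genes lay low. Ccdc40 and Ccdc39, the pair that sets the axonemal repeat, had 3.51 and 2.11, and 2.42 and 1.85, in replicates 1 and 2. The Ccdc40 values came from different peaks, at chr11:119228381-119228640 in replicate 1 and, by an internal start, at chr11:119258581-119259000 in replicate 2. At the replicate 1 site, where a start of Tbc1d16 lies 73 bp from that of Ccdc40, replicate 2 had 1.74. Of the central pair genes, Hydin had 3.04 and 2.41, Spef2 had 3.10 and 1.89, Spag16 had 1.34 and 1.04, and Spag17 had 0.684 and 0.622. Spag17 was the weakest open member. Its value corresponds to 105 steps in replicate 1 and 95 in replicate 2, where a step is the unit of which all values of a library are whole multiples, against 3515 and 2172 steps at Rsph1.

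Among the other ciliary genes, Tppp3, a microtubule-associated protein, was highest, with 11.2 in replicate 1 and 6.48 in replicate 2 (8.81 ± 3.30). Dynlrb2, a roadblock-type dynein light chain, had 6.26 and 3.42, and Ak7, an adenylate kinase of motile cilia, had 5.67 and 2.93. Cfap43, a cilium and flagellum protein, had 3.17 and 3.06, nearly equal values, at a promoter 12 bp from a start of Itprip. The tektins, filament proteins of the doublets, had 2.64 and 2.22 at Tekt1, 1.93 and 1.68 at Tekt4, and 0.866 and 0.733 at Tekt2. Sntn (sentan), a protein of the tips of motile cilia, had no promoter peak.

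The 6 members with another coding gene's start within 1 kb were all open, with a median value of 5.15. Of the 36 members with no such neighbour, 31 were open (86.1%), with a median of 2.5. A share of open promoters above that of all genes was therefore also seen without the shared promoters.

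Every open member had at least 1 footprint inside a promoter peak in both libraries (37 of 37), but so did 97.3% of all open promoters. The median number of footprints was 5 in replicate 1 and 4 in replicate 2 over the open members, against 5 and 6 over all open promoters. The highest peak was centred within 150 bp of a start in both libraries at 29 of the 37.

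**Figure D2:**
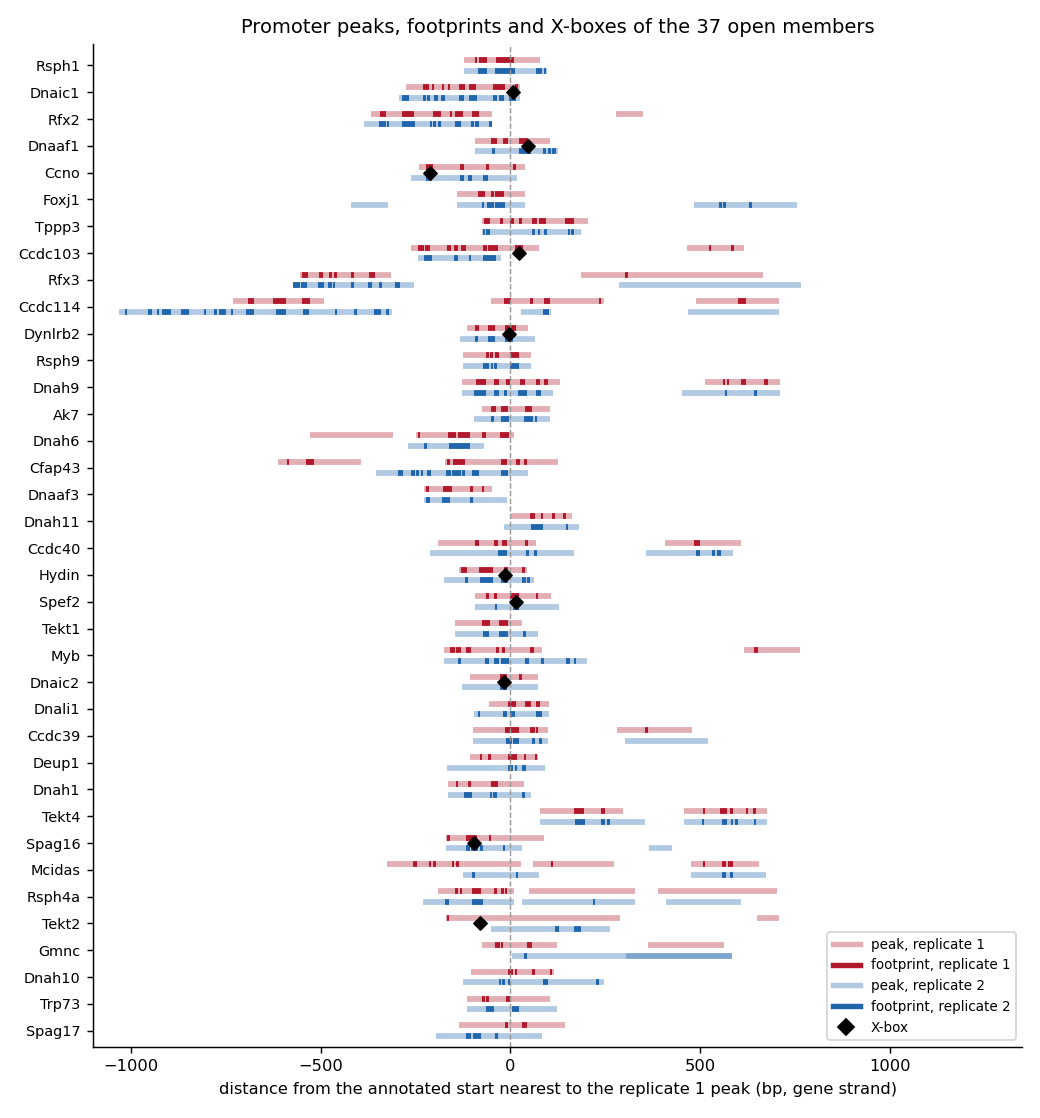
Promoter peaks (pale), footprints inside them (dark) and X-boxes (diamonds) of the 37 open members, as distance in bp from the annotated start nearest to the highest peak of replicate 1, on the gene's strand, with members ordered by mean value from the top. Most peaks of both libraries overlie the start, and the X-boxes lie between -212 and 48 bp from their nearest start.

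X-boxes were more frequent at the members than at all open promoters. The consensus of a half-site, a gap of up to 3 bases and the second half-site was searched on both strands within 150 bp of the centre of the highest promoter peak of replicate 1. It was found at 10 of the 37 open members (27.0%), against 1.89% of all open promoter windows. It lay under a footprint in both libraries, with at least 5 bases covered, at 8 members (21.6%), against 1.22%. Footprints were taken from the whole lists for this count, and at Ccdc103 the one in replicate 2 lay outside the called promoter peak. In addition to the 8 genes shown above, Dnaic1 and Tekt2 held an X-box, with no footprint over it in replicate 1 at Dnaic1 and in neither library at Tekt2. Of the 10 X-boxes, 8 lay within 50 bp of a start, and the one farthest from a start was that of Ccno, at -212 bp.

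By role, X-boxes occurred at 1 of 9 open regulators, 2 of 4 outer arm genes, 0 of 4 inner arm genes, 2 of 4 assembly and docking genes, 3 of 9 genes of the ruler, spokes and central pair, and 2 of 7 other ciliary genes. The strongest member, Rsph1, had none, and neither had Foxj1, Rfx2 or Rfx3. X-box members were spread over the range of values, from 0.8 at Tekt2 to 12.7 at Dnaic1.

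Other cilium genes, listed apart from the members, were read in the same way. Of 62 further motile cilium genes, 54 were open (87.1%), with a median value of 3.36, and 11 of the 54 windows held an X-box (20.4%), 6 of them under a footprint in both libraries. The highest were Enkur at 13.9 ± 7.08, Ccdc151 at 11.9 ± 6.14 and Dnaaf5 at 9.78 ± 4.91 (SD, n = 2), each with another coding gene's start within 1 kb; Ccdc78, Cdhr3 and Cdhr4 had no peak. All 45 genes of the primary cilium and intraflagellar transport were open, with a median of 7.43, as were all 16 centriole duplication genes, with a median of 8.36. X-boxes were found at 4 of those 45 (8.89%), which were Ahi1, Ift57, Dync2li1 and Bbs1, and at 2 of those 16 (12.5%), Spice1 and Cep135, these 6 being named after their values were seen. Genes that also serve the primary cilium or the centriole thus had higher median values than the members, and a smaller share of them held the element. The high CpG class held 42 of those 45 genes and all 16 centriole genes, against 23 of the 42 members. Over all open promoters of that class the median was 6.07, and the contrast in value was not read within classes.

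**Figure D3:**
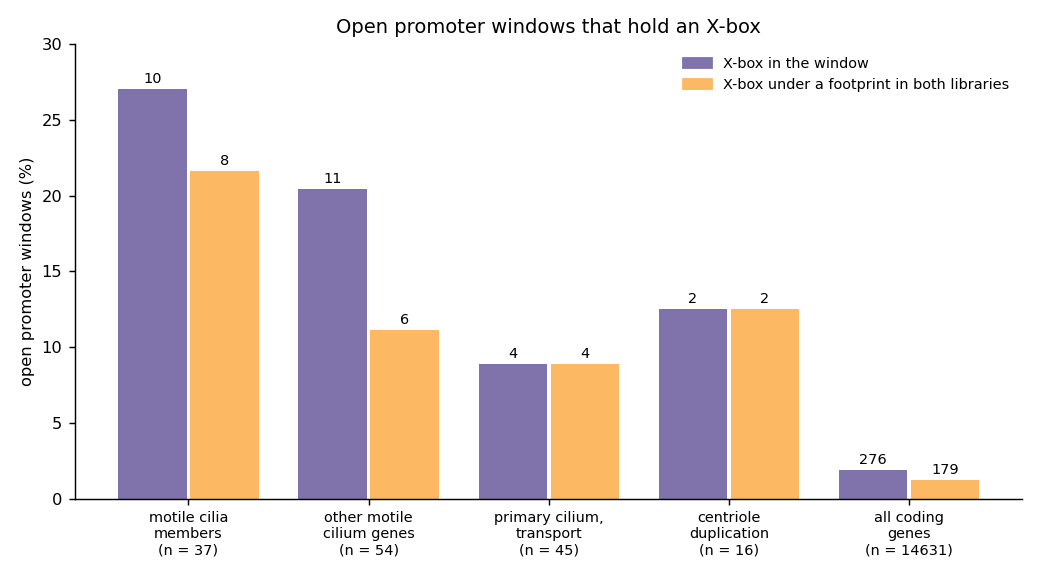
Percentage of open promoter windows that held an X-box (purple) and of those with an X-box under a footprint in both libraries (orange), in the members, 3 other gene lists and all coding genes. Numbers above the bars are genes, n is the number of open promoters, and the members' bars stand at 27.0% and 21.6% against 1.89% and 1.22% of all.

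Other elements were closer to their shares in all open windows. The MYB element TAACNG was in 13 of the 37 windows (35.1%), against 15.1% of all open windows. The forkhead element TGTTTAC, which FOXJ1 and other forkhead proteins can bind, was in 2 (5.41%), those of Myb and Ak7, against 1.85%. CCAAT, the element of NFY, was in 12 (32.4%), against 35.6%, and the E2F element TTCCCGC was in 2 (5.41%), against 9.79%. The p53 family half-site was in 2 windows, against 6.14% of all, the CTCF element in 1, against 1.5%, and the NR5A element TCAAGGNCA in 0, against 0.807%. All were searched on both strands, any overlap with another element was allowed, and a missing match says only that these letters are not in that window.

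The libraries differed in level at every open member, replicate 1 being higher at 37 of 37, as it was at 96.7% of all open promoters. The ratio of replicate 1 to replicate 2 had a median log2 value of 0.63 over the open members, against 0.88 over all open promoters. It was under that overall median at 28 of 37 members, against 50% of all open promoters. These 28 include Ccdc40, whose ratio compares different peaks. Relative to all, the members' median ratio was -0.25 on the log2 scale, against an SD of 0.39 between promoters.

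This ratio went with peak value and base composition in the whole data, with a median of 0.42 in the weakest of 10 classes of value and 1.09 in the strongest. Over 5 classes of GC content the medians were 0.52 in the lowest class and 1.11 in the highest. Within classes of both value and GC content the members' median difference was -0.09. The regulators stood at 0.13 relative to all promoters and at 0.00 within those classes, and the other members at -0.40 and -0.13. At single genes the difference between the libraries ran from 0.05 at Cfap43 to 1.44 at Gmnc on the log2 scale. Each ratio takes the highest peak of each library, and these peaks differed in extent at some members. At Gmnc they were 200 bp long in replicate 1 and 580 bp in replicate 2. At Ccdc114 they were 240 bp in replicate 1 and 720 bp in replicate 2. With 1 animal for each library, an animal and its library cannot be told apart.

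**Figure D4:**
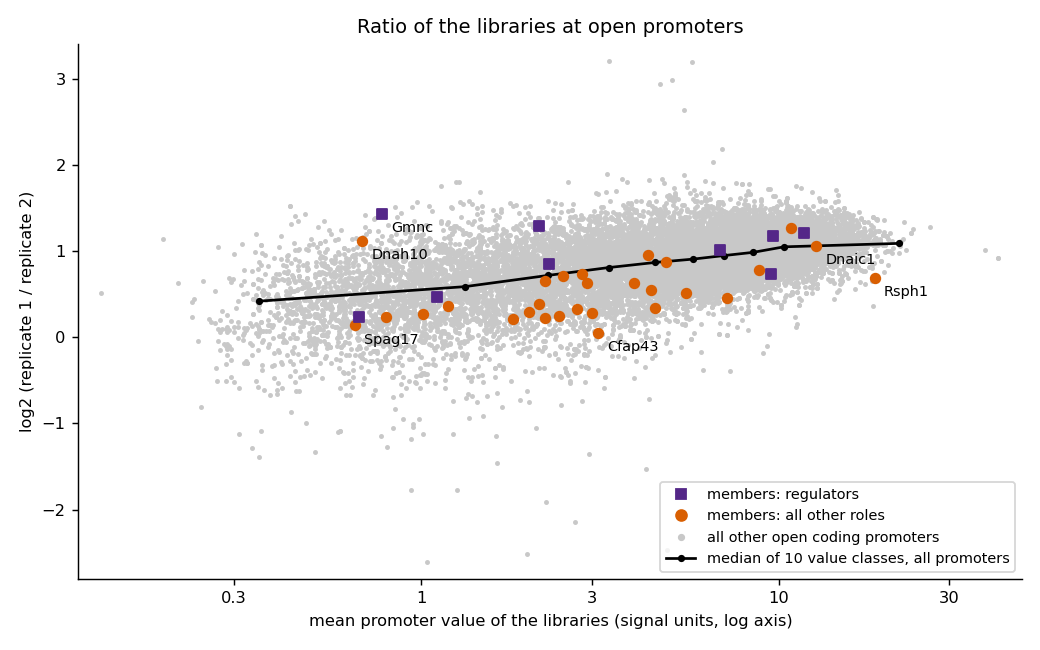
Log2 ratio of replicate 1 to replicate 2 against the mean promoter value (signal units, log axis) for all open promoters, with the open members as squares (regulators) and large circles (all other roles). The black line joins the medians of 10 classes of value, and most of the members other than regulators lie under it.

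Distal sites were peaks shared by the libraries and centred more than 1000 bp away from all annotated starts, each counted for the coding gene whose start was closest. The members held 121 of the 51535 such sites. At least 1 was found at 33 of the 42 members (78.6%), against 58.1% of all genes, with a median of 2 per member against 1 per gene. The stretch of genome nearest to a gene was longer for the members, with a median of 76.5 kb against 45.0 kb. Per 100 kb of that stretch the members pooled 1.69 sites, against 1.89 for all genes. The median of the densities of single genes was 1.54 for the members and 1.22 for all genes, so the order depended on the summary.

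The 9 members with no shared distal site were Ccno, Deup1, Rsph4a, Ccdc103, Ccdc40, Dnali1, Dnaaf3, Dnaaf1 and Tekt2. Dynlrb2 had the most, with 20, of which 19 lay upstream, as far as 390 kb; the strongest was at chr8:116439021-116439200, 65.9 kb upstream, with 2.64 in replicate 1 and 1.57 in replicate 2. Dnah2 and Dnah9 had 8 each, and Dnah3 had 6. Foxj1, Rfx2, Hydin and Spag16 had 5 each. Of the 121 sites, 67 lay in introns of coding genes, 42 between genes and 10 in exons.

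The strongest distal site lay in an intron of Rfx2, 20.5 kb downstream of its nearest start, at chr17:56810321-56810520, with 12.5 in replicate 1 and 6.32 in replicate 2 (9.42 ± 4.39). It held the 13-base X-box shown above, under a footprint in both libraries. A further pair of the 10 strongest lay in the same gene: chr17:56808621-56808800 with 3.79 and 3.10, and chr17:56814441-56814620, the site with 2 X-boxes, with 4.32 and 2.52. Rfx2 thus held 3 of the 4 strongest distal sites of the members.

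The second strongest was in an intron of Dnaic2 (chr11:114745201-114745400), with 7.63 in replicate 1 and 4.70 in replicate 2, and held a CTCF element under a footprint in both libraries. Sites in introns of Rsph9 (chr17:46132161-46132380) and Dnah11 (chr12:117993561-117993760) had means of 2.83 ± 0.628 and 2.72 ± 0.817. A site in an exon of Dnah1 (chr14:31272281-31272460) had 2.62 ± 0.559, and an intergenic site 74.7 kb upstream of Ccdc39 (chr3:33918881-33919060) had 2.58 ± 0.776. Both of these held a CTCF element under a footprint in both libraries. An intergenic site 3.31 kb upstream of Dnah3 (chr7:120098501-120098680) had 2.76 ± 0.660.

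Of the 121 distal sites, 3 held an X-box (2.48%), all 3 under a footprint in both libraries, against 0.842% of all shared distal sites with an X-box and 0.289% with one under such a footprint. The CTCF element was in 10 (8.26%), against 8.58%, the forkhead element in 3 (2.48%), against 3.62%, and the NR5A element in 3 (2.48%), against 4.72%. Only the X-box stood above its share in all distal sites, and on 3 sites.

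**Figure D5:**
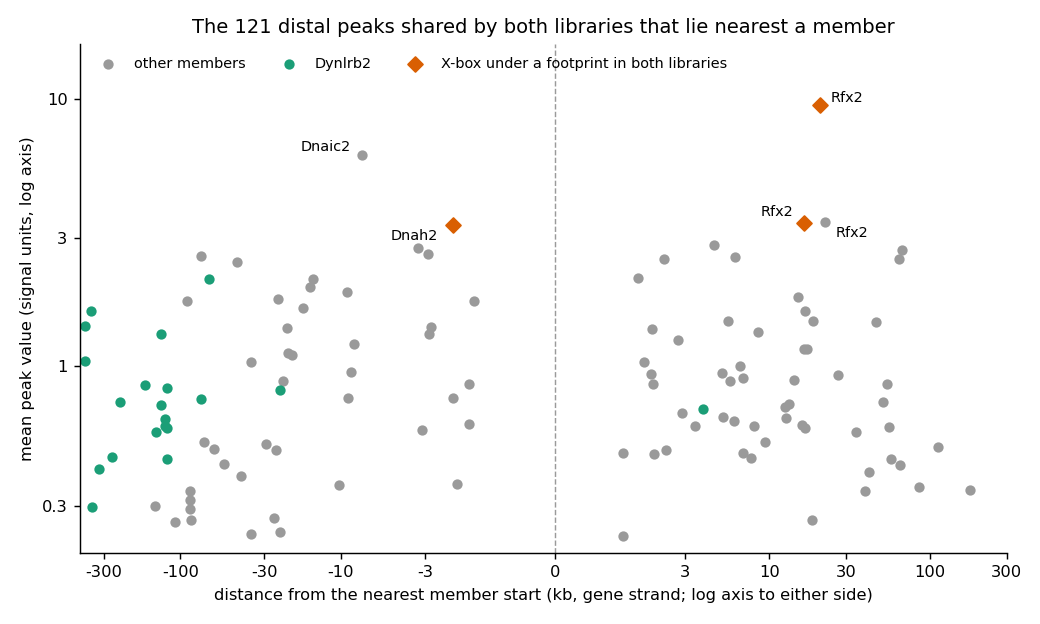
Mean value of the 121 shared distal sites assigned to members (signal units, log axis) against the distance from the nearest start of that member, on the gene's strand (kb, negative upstream, log axis to either side of 0). Dynlrb2's 20 sites (green) reach 390 kb upstream, and the 3 sites with an X-box under a footprint (diamonds) are 2 in Rfx2 and 1 in Dnah2.

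The 5 members without a promoter peak were followed to their nearest distal sites. No base within 500 bp of any of their annotated starts had a listed false discovery rate in either library. The strongest Dnah2 site, chr11:69546421-69546720, with 4.22 in replicate 1 and 2.51 in replicate 2 (3.36 ± 1.21) and an X-box under a footprint, lay 2.01 kb from a GENCODE start, in an intron of the GENCODE models. It covers first exons and starts of predicted RefSeq transcripts of Dnah2, the lowest at position 69546658. Where RefSeq starts, predicted ones included, replaced those of GENCODE, 39 members were open, against 68.4% of all genes, with Dnah2 and Dnah5 added. The Dnah5 peak lay at a predicted start 48898 bp from the GENCODE start, with 0.873 in replicate 1 and 0.452 in replicate 2. Dnah3 had none under either annotation, and its nearest site lay 2.75 kb upstream. Dnah12 and Sntn had only weak distal sites, 41.9 and 85.5 kb away, with means of 0.401 and 0.264. The closed set was therefore Dnah3, Dnah12 and Sntn under both annotations.

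Markers of the cells that the tissue could hold were read beside the members. Of 17 ovarian somatic genes, which check the labelled tissue, 16 were open, with Gata4 at 5.67 ± 2.44, Foxl2 at 4.66 ± 2.09 and Inhba at 4.53 ± 1.34 (SD, n = 2), and Hsd3b1 had no peak. The median of the open ones was 2.33, below the members' 2.81. By CpG class the open ones were 6 high, 4 middle and 6 low, against 23, 12 and 2 of the open members. These medians were not compared within classes. Of 17 markers of oviduct secretory and other epithelia, 12 were open, with a median of 1.37; Msx1 had 6.07 ± 3.16, Cdh1 2.16 ± 0.778 and Cldn3 1.69 ± 0.442, while Lrrn4 and Muc16 had no peak. Ovgp1, an oviduct secretory gene, had 0.475 in replicate 1 and 0.504 in replicate 2, the lowest mean of the 12 open ones. Pax8, of the same list, had 1.26 in replicate 1 and 0.975 in replicate 2. Both genes were named after their values were seen. Of 22 sperm and spermatid genes, many of which are used with axonemal genes in the testis, 4 were open, against 66.7% of all genes. The other 18, among them Acr, Acrbp and Acrv1, had no peak. By CpG class the 22 were 4 high, 6 middle and 12 low, and the 4 open ones were all high. Of all genes in the low class 14.4% were open. The highest of the 4 open ones were Odf2 with 28.8 in replicate 1 and 14.6 in replicate 2, Catsper2 at 11.9 ± 7.67 and Tssk6 at 10.4 ± 3.27, the last 2 beside other coding genes' starts. Whether the genes of this list are also used in cells other than sperm was not tested.

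Of 10 ependymal and brain ciliated cell markers 7 were open, with a median of 1.37, the highest being Enkur, Meig1 at 8.95 ± 3.96 and Vim at 5.02 ± 2.31; Kcnj13 and Ttr had no peak. Of 12 oocyte genes 3 were open, Gdf9 at 11.6 ± 4.32, Dazl at 6.99 ± 4.14 and Kit at 3.66 ± 2.14. Bmp15, Ddx4 and Figla were among the 9 with no peak. By CpG class the 12 were 4 high, 1 middle and 7 low, and the 3 open ones were all high. Neither this count nor that of the sperm list was compared within classes. Gdf9 lies beside a start of Uqcrq, so its peak cannot be assigned to either gene alone. Of 8 other genes named for RFX, not all of them RFX factors, 7 were open. They were led by Rfxank at 12.2 ± 6.63, beside starts of Borcs8 and Mef2b, Rfx1 at 11.6 ± 4.53 and Rfxap at 8.53 ± 4.68. Which cells carry the open promoters of the members, and the part of epithelial cells in them, was not tested.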

How the data were processed

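DNase-seq peaks, footprints and per-base false discovery rates of 2 ovary libraries on mm10 were used. The authors deposited a signal per peak, called from each library's filtered alignments. The signal's scaling, the aligner and the callers were not given in the sources used here. All signal values of a library were whole multiples of 1 step (tolerance 0.05 of a step); that a step is 1 read is not shown. The score deposited with each footprint is the same in every line, so only positions were used. The deposited q-values, listed by the authors only below 0.05, were looked up at members' starts.

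Peaks were joined to GENCODE M21 starts with Python 3.11.15, numpy 2.4.6 and pandas 2.3.3. The steps were tested on simulated data. Sequence came from RefSeq's GRCm38.p6. The members, lists and rules were chosen with earlier results of these data known, so all comparisons are descriptions without a test. All members are named. From other lists, up to 3 genes of highest mean value and up to 3 without a peak, in alphabetical order, are named. The 10 distal sites of highest mean are described singly. Alternatives were the shorter deposited peak lists, other starts, windows, summaries and centring, each library alone and, chosen after seeing the data, RefSeq starts.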

Additional observations from a re-analysis of the deposited data

How the results depend on the processing

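The number of open members, their median value and the number with footprints stayed within the limits set for no change under the alternatives run for each, RefSeq starts (chosen after seeing the data) included. The median number of shared distal sites per member, 2 in the report, was 1 with the shorter lists, 1.5 with nearer and farther sites left out, 2.88 as a mean over members, and 3 to 3.5 when 1 library was left out. The members' log2 library ratio relative to all, -0.253 in the report, was -0.27 with the shorter lists, -0.26 with starts of coding transcripts only, -0.22 and -0.26 with 1000 and 200 bp promoters, -0.21 with summed peaks and -0.24 with RefSeq starts. Centred on shared distal sites it turned to 0.34 and all open promoters stood at 0.592, since this centring adds the same amount to every promoter and leaves their gap as it was. X-boxes, 10 in the report, were in 6 windows of 75 bp to either side and in 25 with 1 mismatch allowed, against 1.2% and 13.3% of all. The causes were not tested. No paired analysis was possible because there is 1 group. With 2 libraries of 1 animal each, animal, library and depth cannot be told apart.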
